A study of Mus musculus and Homo sapiens with 65 samples.

Results

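The Obox genes (oocyte-specific homeobox) and Crxos, a homeobox gene named for its place beside and opposite to Crx, form a cluster on mouse chromosome 7. Their levels were followed in late 2-cell mouse embryos by RNA-seq. Of 32287 genes listed, 6 are described here, found by their symbols, with no measured value in the rule: Obox1, Obox2, Obox3, Obox5, Obox6 and Crxos. All 6 passed the filter on low values and had a valid estimate in all 9 libraries. The series holds 65 samples, and only these 9 RNA-seq libraries were used. The embryos are whole 2-cell embryos grown in G1 plus medium to the late 2-cell stage. Alpha-amanitin, a fungal toxin that blocks RNA polymerase II, had been given to the embryos of 2 libraries. A further 2 came from embryos whose zygotes had been injected at 0.5 days post coitum with morpholinos against Kdm5a and Kdm5b, which encode histone H3 lysine 4 demethylases. The injection controls were 2 libraries from zygotes given mismatch control morpholinos for the same genes at 0.5 days post coitum. The 3 wild-type libraries carry no treatment in their labels. The sources used here do not give the strain, the number of embryos pooled per library, or the dose, route and vehicle of alpha-amanitin, so handling and vehicle cannot be told apart from the toxin. Nothing says whether replicates came from separate collections, so p-values speak only of variation among these libraries, and that variation may be technical.

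Homeobox genes encode transcription factors that bind DNA through a homeodomain. The Obox proteins carry a homeodomain of the paired-like type, the class to which CRX and OTX2 also belong, and in the mouse they are known from the oocyte and the earliest embryonic stages, where members of the family have been linked to the first activation of the zygotic genome. At the 2-cell stage maternal RNA is degraded while the embryo begins its own transcription, so a transcript found there may have either source. Alpha-amanitin is used to tell which transcripts need new synthesis.

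The 6 genes lie within 515 kb of mm10 chromosome 7, from 15388721 to 15904020, and all are annotated as protein-coding. Obox2 (ENSMUSG00000074369.7, 15388721 to 15398545) and Obox1 (ENSMUSG00000054310.11, 15388948 to 15556866) lie on the plus strand, and the Obox1 row begins inside Obox2. Obox3 (ENSMUSG00000066772.7, 15479825 to 15639902) lies on the minus strand and overlaps the Obox1 row. Obox5 (ENSMUSG00000074366.4, 15750131 to 15759800, plus strand), Obox6 (ENSMUSG00000041583.8, 15833241 to 15839678, minus strand) and Crxos (ENSMUSG00000074365.8, 15882617 to 15904020, plus strand) follow without overlap. The sources used here do not say whether the library kit kept strand, so reads from the overlapping rows may have been shared among them.

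The coding sequences of 4 of the Obox genes are close copies. Over the longest annotated coding sequences in GENCODE M21, Obox1 was identical to Obox2 at 98.5% of aligned bases, to Obox5 at 95.6% and to Obox3 at 94.0%. Obox6 stood further off, at 77.9% with Obox1 and 80.9% with Obox5, and Crxos further still, at 56.7% to 58.7% with the other 5. Of all 50-base stretches of the annotated Obox1 transcripts, 57.4% also occur exactly in another gene, nearly all of them in Obox2 (56.4%). The share was 65.2% for Obox2, 20.2% for Obox3 (18.7% in Obox pseudogenes), 18.1% for Obox5 and 5.02% for Obox6. For Crxos it was 18.5%, with none in an Obox gene. Genes that overlap on the same strand, as the rows of Obox1 and Obox2 do, can also share stretches because they cover the same DNA. Such stretches were not separated from those of true copies. How the deposited values divided reads between such genes is not given, so the split between Obox1 and Obox2 in particular is uncertain.

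The promoters of 3 members are shown because genes that stayed present with alpha-amanitin (Obox5 and Obox1) and a gene that did not (Obox3) share the same stretch at the start site. Each line runs from 250 bases before to 30 bases after the RefSeq start (GRCm38.p6), and capitals mark the 42-base run identical in all 3. The Obox5 window is chr7:15750120-15750399 on the plus strand, the Obox1 window chr7:15547007-15547286 on the plus strand, and the Obox3 window chr7:15639748-15640027 on the minus strand. The measured rows begin upstream of these RefSeq starts, at 15750131 for Obox5, 15388948 for Obox1 and 15639902 for Obox3. These windows may thus not be the promoters of all the transcripts measured.
Obox5: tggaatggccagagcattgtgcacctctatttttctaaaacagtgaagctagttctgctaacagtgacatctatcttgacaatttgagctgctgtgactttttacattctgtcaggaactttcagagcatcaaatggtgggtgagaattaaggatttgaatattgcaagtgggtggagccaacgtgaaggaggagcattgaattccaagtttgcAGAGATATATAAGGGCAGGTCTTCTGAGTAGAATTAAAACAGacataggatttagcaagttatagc
Obox1: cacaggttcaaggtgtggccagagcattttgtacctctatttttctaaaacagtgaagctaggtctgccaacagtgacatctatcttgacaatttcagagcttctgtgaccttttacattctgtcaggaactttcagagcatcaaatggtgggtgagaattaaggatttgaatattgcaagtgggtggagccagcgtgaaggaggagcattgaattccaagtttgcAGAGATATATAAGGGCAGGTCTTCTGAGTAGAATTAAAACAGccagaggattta
Obox3: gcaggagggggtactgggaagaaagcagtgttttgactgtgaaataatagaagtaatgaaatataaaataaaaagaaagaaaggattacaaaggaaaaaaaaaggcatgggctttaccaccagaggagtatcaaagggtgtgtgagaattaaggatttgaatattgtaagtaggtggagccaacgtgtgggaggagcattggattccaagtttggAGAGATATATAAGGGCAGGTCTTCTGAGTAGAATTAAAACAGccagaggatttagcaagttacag
The run begins 36 bases before the start in Obox5, 24 in Obox1 and 35 in Obox3. Among all 32851 promoter windows of the table it was found in 4, those of Obox1, Obox3, Obox5 and Obox7, another member of the family. The window of Obox2, which also stayed present with alpha-amanitin, does not hold it. A shorter stretch of 25 bases is common to the windows of Obox1, Obox2, Obox3, Obox5 and Obox7. In the 50 bases just upstream of the run, compared without gaps, Obox1 and Obox5 matched at 49 bases, Obox1 and Obox3 at 43, and Obox3 and Obox5 at 44. From 101 to 150 bases upstream of the run, Obox1 matched Obox5 at 33 of 50 bases, Obox7 at 48 and Obox3 at 13. From 151 to 200 bases upstream these matches were 19, 45 and 11 of 50; an insertion or deletion also lowers a match counted without gaps. The stretch next to the start site is thus shared, and in counts without gaps Obox3 matched Obox1 least farther upstream. The lower counts of Obox5 do not measure how far it differs from Obox1 there. Their lines hold the same letters again farther upstream, such as ctctatttttctaaaacagtgaagctag, at a different distance from the run. The 300-base windows were searched on both strands for 4 motifs, and no matches to different motifs overlapped in the windows of these genes. The letters TAATCC, a site of CRX-type homeodomains, were in 7.1% of all windows of the table and matched 1 time in Obox3 and in no other window of these genes. The letters CCAAT, the site of NF-Y, were in 37.4% of all windows and matched 1 time in Obox3, 1 time in Obox7 and 2 times in Obox2. The letters TATAAA, a form of the TATA box, were in 13.6% of all windows and matched in Obox3 only among these genes, at position -189 from the start. That is outside the run shown in capitals, which holds a TATA-like stretch that differs from these letters. The DUX motif was in 11 windows of the table and in none of these. The windows of Obox1 and Obox5 and the 3 windows of Crxos held no match to any of the 4. The table has no entry for Obox6.

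Levels are FPKM, fragments divided by the length of the transcript and the total of its library, so they are per length and relative to the other RNA of the same library. Read counts were not part of the files and depth in reads is unknown. The authors' bounds on each FPKM give a relative measure: their median width on either side was 21.5% and 24.4% of the FPKM with alpha-amanitin, 13.0% and 14.3% with Kdm5a+b morpholinos, 11.9% and 14.8% in mismatch controls and 18.7% to 19.4% in wild type. Genes at 1 FPKM or more numbered 7935 and 7977 with alpha-amanitin and 10611 to 11228 in the other 7 libraries. Markers of the late 2-cell embryo, 7 genes led by Zfp352, summed to 4.84 and 8.90 FPKM with alpha-amanitin and to 231 to 351 FPKM in the other libraries. Oocyte markers, 6 genes led by Bmp15, went the other way. They summed to 617 and 681 FPKM with alpha-amanitin and to 262 to 363 FPKM in the other libraries. Bmp15 alone stood at 463 and 487 FPKM with alpha-amanitin and at 154 to 229 FPKM in the other libraries. The sums thus follow Bmp15 in large part and do not show that each oocyte marker was higher. Of 10 cumulus markers, 7 stayed under 1 FPKM in every library and Foxl2 was listed at 0 in all 9; their sum was 0.464 and 0.738 FPKM with alpha-amanitin and 8.68 to 13.6 FPKM elsewhere. The sums of 8 sperm markers (Prm1 listed at 0 throughout), 8 blood markers (Hbb-bs and Hbb-bt listed at 0) and 6 oviduct markers did not exceed 11.3 FPKM in any library. The part of such cells in the results was not tested. In bulk libraries fewer cells of a type and less RNA per cell cannot be told apart.

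In wild-type embryos all 6 genes were present, at a similar order of level. Obox5 was the most abundant at 105 ± 22.0 FPKM, followed by Crxos at 65.2 ± 23.4, Obox3 at 47.2 ± 12.2, Obox1 at 24.5 ± 3.40, Obox6 at 23.0 ± 6.57 and Obox2 at 17.0 ± 6.23 FPKM (SD, n = 3 each). The ranges of neighbours in this order overlapped, with 1 exception: all wild-type values of Obox3 lay above all those of Obox1. Obox5 ranked between place 188 and 512 among all genes of a wild-type library. The order by mean was the same in mismatch controls. With Kdm5a+b morpholinos Obox3 stood above Crxos and Obox2 above Obox6, but the ranges of each of these pairs overlapped.

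Alpha-amanitin against wild type asks which of these transcripts need new transcription to be present at the late 2-cell stage. The 6 genes split in relative level: Obox3, Obox6 and Crxos fell to almost nothing and Obox1 rose. Obox2 and Obox5 remained at levels whose difference from wild type did not pass the test. As FPKM is relative to the other RNA of a library, a rise here or below is one of relative level. Amounts per embryo were not measured. In that comparison 25.1% of the 13137 genes tested were called lower and 4.31% higher, by limma with a Benjamini-Hochberg adjusted p under 0.05; of the 6 genes 3 were lower and 1 was higher. The median change over all genes tested was -0.56 on the log2(FPKM + 1) scale, and 0.17 when the libraries were forced to 1 distribution by quantile normalization. For 2 libraries against 3 the smallest two-sided p of an exact permutation test is 0.2, so calls rest on the model across genes. The FPKM ranges of the groups did not overlap for 5 of the 6 genes, 3 below wild type (41.1% of all genes tested) and 2 above it (13.4%).

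**Figure D1:**
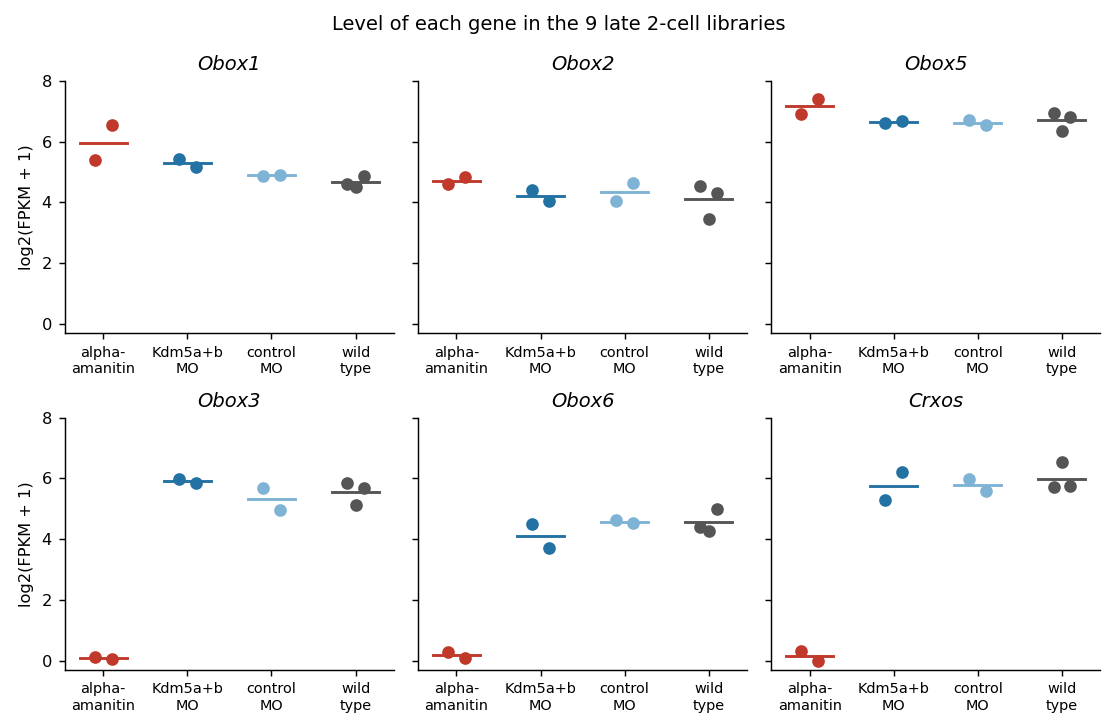
Level of each gene in each library, as log2(FPKM + 1) on the vertical axis, with 1 dot per library, a bar at the mean of the dots and the 4 groups along the horizontal axis. In the lower row Obox3, Obox6 and Crxos lie near 0 in both alpha-amanitin libraries and well above it in the other 7, while in the upper row Obox1, Obox2 and Obox5 are present in all 9.

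Obox3 encodes one of the Obox homeodomain proteins and was among the abundant members in wild type. It stood at 0.0855 and 0.0298 FPKM with alpha-amanitin, against 57.1, 33.6 and 51.0 FPKM in wild type. The authors' upper bounds in the alpha-amanitin libraries were 0.614 and 0.748 FPKM, below every other library by a wide margin. Obox3 thus fell, by a log2 difference of -5.48 (SE 0.35, limma adjusted p = 3.98e-06), and the groups did not overlap.

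Crxos encodes homeodomain proteins known from preimplantation embryos and embryonic stem cells of the mouse. It stood at 0.257 FPKM in 1 alpha-amanitin library and was listed at 0 in the other, against 51.1, 92.3 and 52.3 FPKM in wild type. Wild-type replicate 2 was the highest and the other wild-type values lay close together. The log2 difference was -5.83 (SE 0.39, limma adjusted p = 4.38e-06), the largest of the 6 genes in this fit.

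Obox6, the most distant of the 5 Obox genes in sequence, is known from mouse work on reprogramming to pluripotency. It stood at 0.214 and 0.0686 FPKM with alpha-amanitin, against 20.0, 18.5 and 30.6 FPKM in wild type. Every wild-type library was far above both treated ones. Its log2 difference was -4.37 (SE 0.39, limma adjusted p = 2.12e-05). Since 1 is added before the log, differences of such low values are understated: with 0.1 added they were -8.22 for Obox3, -8.38 for Crxos and -6.62 for Obox6.

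Obox1 is one of the founding members of the family, first found in oocytes. It stood at 41.2 and 92.3 FPKM with alpha-amanitin, against 23.3, 21.9 and 28.4 FPKM in wild type. Both treated libraries were above all wild-type ones, but they differed from each other by more than the wild-type libraries did. On the log2 scale the difference was 1.31 (SE 0.34, limma adjusted p = 0.0159). This call rested on replicate 2: without it the difference was 0.73 (adjusted p = 0.165), and without replicate 1 it was 1.88 (adjusted p = 0.00262). It was also lost with no filter on low values (adjusted p = 0.0834) and when the fit held just the groups compared (adjusted p = 0.0573).

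Obox2, the near copy of Obox1, stood at 23.3 and 27.7 FPKM with alpha-amanitin, against 22.1, 10.1 and 18.9 FPKM in wild type. Both treated values lay above the wild-type ones, by a small margin over wild-type replicate 1. On the log2 scale the difference was 0.62 (95% confidence interval -0.23 to 1.47, limma adjusted p = 0.254).

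Obox5, the member with the highest mean in every group, stood at 121 and 168 FPKM with alpha-amanitin, against 123, 80.5 and 111 FPKM in wild type. The groups overlapped. The log2 difference was 0.46 (95% confidence interval -0.09 to 1.01, limma adjusted p = 0.194). Whether Obox1 responded differently from Obox2 and Obox5 was not tested.

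**Figure D2:**
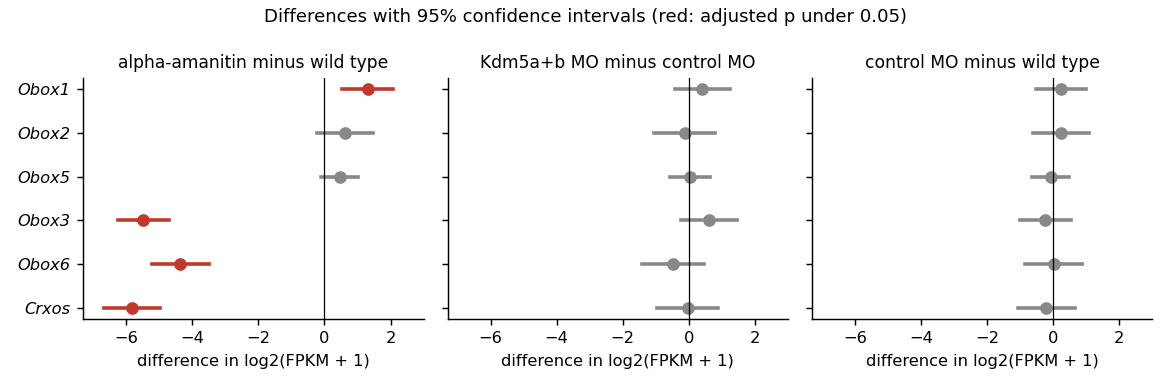
Difference in log2(FPKM + 1) of each gene (horizontal axis) in the 3 comparisons, with dots for the limma estimate and lines for its 95% confidence interval; red marks an adjusted p under 0.05. With alpha-amanitin Obox3, Obox6 and Crxos lie between -4.37 and -5.83 and Obox1 at 1.31, while in the morpholino comparisons all 6 intervals include 0.

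The makeup of the family's RNA changed accordingly. Obox1, Obox2 and Obox5 together made up 99.7% and 100.0% of the summed FPKM of the 6 genes with alpha-amanitin, against 56.8%, 43.8% and 54.1% in wild type. The sum itself was 186 and 288 FPKM with alpha-amanitin, against 297, 257 and 292 FPKM in wild type, and so overlapped between the groups. Obox5 alone was 64.9% and 58.4% of it with alpha-amanitin, against 41.5%, 31.3% and 38.0% in wild type. These shares are sums of relative values within each library, and they restate the single-gene levels above.

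**Figure D3:**
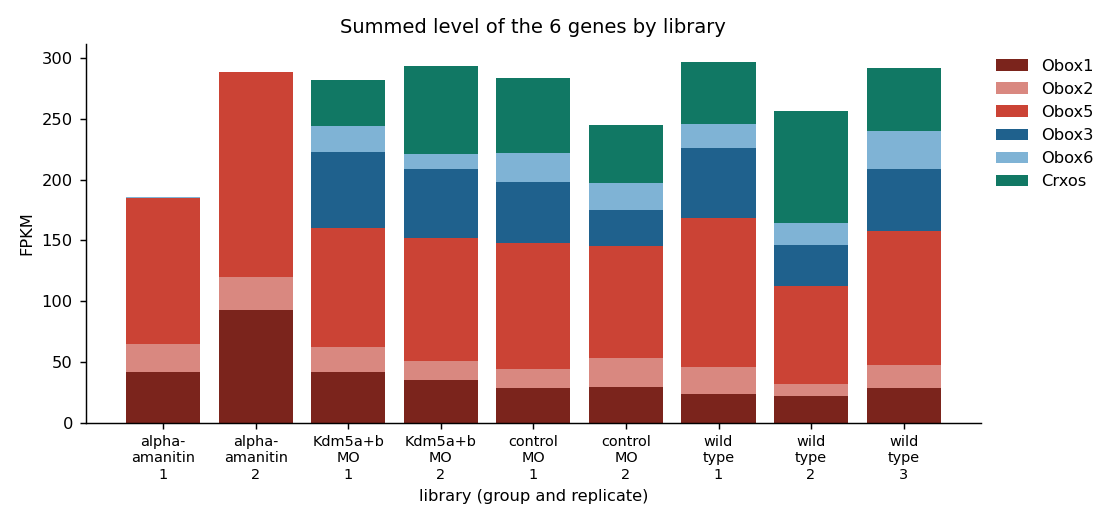
Summed FPKM of the 6 genes (vertical axis) in each library (horizontal axis), stacked by gene. In both alpha-amanitin libraries the bars consist of Obox1, Obox2 and Obox5, which make up 99.7% and 100.0% of the sum, while Obox3, Obox6 and Crxos fill about as much of the bar as those 3 in the other libraries.

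Kdm5a+b morpholinos against mismatch controls ask whether any of the 6 genes depends on these demethylases, with injection matched. Neither targeted transcript passed the test (limma adjusted p = 1 for each): Kdm5a stood at 19.5 and 15.3 FPKM against 12.8 and 9.44 FPKM in mismatch controls, and Kdm5b at 38.1 and 27.6 FPKM against 55.3 and 39.6 FPKM. Both Kdm5b values lay below both controls, as for 16.8% of all genes tested, and both Kdm5a values above them, as for 16.5%. A morpholino can act on translation without lowering its target mRNA, and protein was not analysed here. None of the 6 genes was called, and none of 13137 genes tested (0% in either direction by limma, with 414 at an unadjusted p under 0.05). For 2 libraries against 2 the smallest p of an exact permutation test is 0.333.

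Obox3 had the largest difference of the 6 here. It stood at 62.5 and 57.2 FPKM with Kdm5a+b morpholinos, against 50.6 and 29.9 FPKM in mismatch controls. The ranges did not overlap, as for 16.5% of all genes tested in that direction. Against the wild-type values of 33.6 to 57.1 FPKM, the Kdm5a+b pair began at the upper end and 1 mismatch control lay below. The log2 difference was 0.61 (95% confidence interval -0.24 to 1.45, limma adjusted p = 1).

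Obox6 lay the other way, at 21.5 and 12.0 FPKM with Kdm5a+b morpholinos, against 23.7 and 21.9 FPKM in mismatch controls. The ranges came close without overlap, as for 16.8% of all genes tested in that direction. The log2 difference was -0.48 (95% confidence interval -1.42 to 0.46, limma adjusted p = 1).

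Obox1 stood at 41.8 and 35.1 FPKM with Kdm5a+b morpholinos, against 28.4 and 29.2 FPKM in mismatch controls, a log2 difference of 0.40 (95% confidence interval -0.43 to 1.23, limma adjusted p = 1). Its ranges did not overlap, as for 16.5% of all genes tested in that direction. Both injected groups lay above the wild-type values, but the lower mismatch control did so only at 28.37 against 28.36 FPKM. Crxos stood at 38.2 and 72.9 FPKM with Kdm5a+b morpholinos, against 62.0 and 47.6 FPKM in mismatch controls. The treated pair enclosed the controls, and the log2 difference of -0.04 had an interval of -0.97 to 0.90. Obox5 stood at 98.2 and 101 FPKM against 104 and 92.1 FPKM in mismatch controls, with an interval of -0.58 to 0.63. It was the steadiest of the 6 in these injected libraries. Obox2 stood at 20.2 and 15.4 FPKM against 15.6 and 24.0 FPKM in mismatch controls, with an interval of -1.06 to 0.80. Each of the 6 intervals includes 0 and reaches at least 0.63 on the log2 scale in 1 direction, so the data do not show that the genes are independent of the demethylases.

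Mismatch controls against wild type ask whether injection together with control morpholinos goes with a change. None of the 6 genes was called, nor any of the 13137 tested (0% in either direction by limma, with 616 at an unadjusted p under 0.05). The log2 differences ran from -0.24 for Obox3 (95% confidence interval -1.01 to 0.54) to 0.24 for Obox2 (95% confidence interval -0.61 to 1.09), with a limma adjusted p of 0.999 or 1 for each. Obox1 was the only member whose FPKM ranges did not overlap, at 28.37 and 29.17 FPKM in mismatch controls against 21.9 to 28.36 FPKM in wild type. That gap is smaller than the width of the authors' bounds on each value, and 9.26% of all genes tested lay wholly above wild type in the same way (8.85% wholly below).

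The rest of the family showed both patterns. The files give no other row the symbol Obox, but 43 further rows carry Obox names in GENCODE M21 when matched by gene ID, a match made after the values were seen. Of these, 26 stayed under 1 FPKM in all 9 libraries, and 13 were tested. With alpha-amanitin 8 of the 13 fell, 1 rose and 4 did not pass, beside the background of 25.1% lower and 4.31% higher. Of the 8 that fell, 6 are Obox3 pseudogenes that share sequence with Obox3. The 13 rows are thus not separate genes in the way the background is counted. In the morpholino comparisons none was called.

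Obox7 (listed as Gm4745, chromosome 7, 14659496 to 14665996) is a protein-coding member whose longest coding sequence was 96.0% identical to that of Obox5. It stood at 37.0 and 18.2 FPKM with alpha-amanitin, against 6.28, 8.58 and 5.56 FPKM in wild type. It was 6.50 and 8.38 FPKM with Kdm5a+b morpholinos and 10.4 and 6.69 FPKM in mismatch controls. The treated libraries were thus above the other 7, though apart from each other. The log2 difference from wild type was 1.81 (SE 0.41, limma adjusted p = 0.00774), and the call was lost without alpha-amanitin replicate 1 (1.32, adjusted p = 0.0880). Of the 50-base stretches of Obox7 transcripts, 17.2% also occur in Obox5, so part of its signal may be shared.

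Obox8 (listed as Gm5585, chromosome 7, 14331436 to 14333557) is a protein-coding member at the far end of the cluster, with no 50-base stretch shared with any other annotated gene. It stood at 0.126 and 0 FPKM with alpha-amanitin, against 38.4, 51.6 and 47.6 FPKM in wild type. Its log2 difference was -5.45 (SE 0.32, limma adjusted p = 2.70e-06). It was 34.8 and 29.8 FPKM with Kdm5a+b morpholinos and 26.8 and 39.4 FPKM in mismatch controls, and so was near absent in the alpha-amanitin libraries only.

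The Obox3 pseudogenes followed Obox3. Of 8 such rows, Obox3-ps1 to Obox3-ps6 all fell with alpha-amanitin and the other 2 did not pass. Their 6 values summed to 0.152 and 0 FPKM with alpha-amanitin, against 296, 248 and 191 FPKM in wild type, and to 242 and 254 FPKM with Kdm5a+b morpholinos against 223 and 245 FPKM in mismatch controls. In wild type that sum was 5.18, 7.39 and 3.75 times the level of Obox3 itself. Obox3-ps6 lies inside the Obox3 row on the same strand, and these copies share sequence with Obox3, so the division of reads among them is uncertain while the loss with alpha-amanitin was common to all 7 rows. Among 32 rows named as Obox4 pseudogenes, 15 were listed at 0 in every library and 3 were tested. Only Obox4-ps35 was called, which the annotation types as a lincRNA, at 1.65 and 0 FPKM with alpha-amanitin against 21.8, 56.4 and 39.6 FPKM in wild type (log2 difference -4.53, SE 0.50, limma adjusted p = 7.81e-05).

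**Figure D4:**
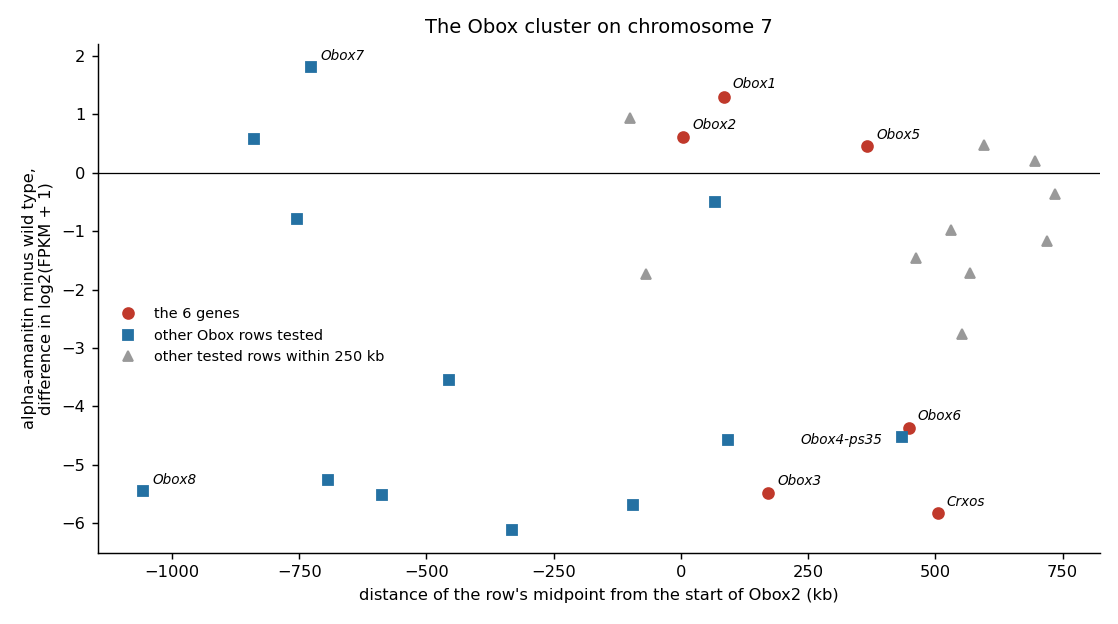
Difference between alpha-amanitin and wild type in log2(FPKM + 1) (vertical axis) for tested rows of the cluster on chromosome 7, against the distance of each row's midpoint from the start of Obox2 in kb (horizontal axis); circles are the 6 genes, squares other Obox rows and triangles other rows within 250 kb. Rows near absent with alpha-amanitin and rows that stayed present are interspersed along the cluster, in part as runs of neighbours with the same pattern. The midpoint of the Obox3 row, which overlaps the Obox1 row, lies between those of Obox1 and Obox5.

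Rows called higher and rows called lower were interleaved along the cluster, as the map of the cluster shows. Within 250 kb of the 6 genes 10 rows outside the family were tested, of which 2 fell with alpha-amanitin, Gltscr2, a nucleolar protein gene (log2 difference -2.75, limma adjusted p = 0.00133), and Ehd2, a membrane trafficking gene (-1.71, adjusted p = 0.0259). The count is no larger a share than the 25.1% of all genes tested that were called lower, and it was 1 without alpha-amanitin replicate 2, wild-type replicate 2 or wild-type replicate 3. Crx, the photoreceptor homeobox gene whose row ends 2648 bases before that of Crxos, had a listed value of 0 in each alpha-amanitin library and of 0.341, 0.297 and 0.0325 FPKM in wild type. It did not exceed 3.12 FPKM anywhere and was below the filter.

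Other genes of the same class and stage give the setting, with lists whose choice was made knowing earlier results of these data; all differences that follow are on the log2(FPKM + 1) scale. Of 15 tested paired-like homeobox genes outside the family, 4 fell with alpha-amanitin and none rose (median -0.31, beside -0.56 over all genes). That share is near the 25.1% of all genes tested that were called lower. Uncx, a homeobox gene of somite and neural development, stood at 0.0534 and 0 FPKM with alpha-amanitin, against 4.73, 13.6 and 4.29 FPKM in wild type. Dmbx1 and Hesx1, homeobox genes of the developing brain, differed by -2.34 and -2.60. No tested paired-like gene outside the family was thus called higher, although with no filter, and with values rescaled to TPM, 1 was.

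Of 28 tested rows of other homeobox genes of the oocyte and early embryo, 5 fell and 2 rose (median -0.25), beside 25.1% lower and 4.31% higher over all genes tested. Lhx2, a LIM-homeodomain factor, and Adnp, a chromatin-associated homeodomain protein, differed by -2.53 and -2.95. The count of 2 higher was 0 without either alpha-amanitin library and 1 without any single Kdm5a+b or mismatch control library.

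Among 25 regulators of zygotic genome activation 15 fell and 1 rose (median -1.67), beside the same 25.1% and 4.31%. This list includes several Zscan4 genes and overlaps the others, so the counts of the lists are not separate. It shares the names Zscan4c, Zscan4d and Zscan4f with the 2-cell transcripts, Dppa3 with the stored oocyte transcripts, and Duxf3 and Dux with the paired-like genes. Gabpa, an ETS-family factor, stood at 1.73 and 1.02 FPKM with alpha-amanitin, against 80.7, 126 and 103 FPKM in wild type. Klf5, a Kruppel-like factor, and Dppa4, a chromatin protein of pluripotent cells, differed by -4.99 and -3.41. The 1 higher was not called without alpha-amanitin replicate 2, Kdm5a+b replicate 1 or 2, or wild-type replicate 1 or 3.

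Of 29 tested 2-cell transcripts 25 fell and none rose (median -3.49, beside 25.1% of all genes lower), led by Zfp352 at 1.77 and 3.05 FPKM with alpha-amanitin, against 92.0, 79.3 and 99.4 FPKM in wild type. Ubtfl1 and Tdpoz1, both 2-cell genes, differed by -5.48 and -5.15. Where the values with alpha-amanitin are near 0, the size of such a difference mostly restates the wild-type level. Sizes were thus not compared with those of Obox3 and Crxos. Of 35 stored oocyte transcripts 4 rose and 3 fell (median 0.53), beside 4.31% higher and 25.1% lower over all genes tested. Bmp15, an oocyte growth factor, stood at 463 and 487 FPKM with alpha-amanitin, against 229, 154 and 219 FPKM in wild type, a difference of 1.26 that is close to that of Obox1. Omt2b and Dppa3, both abundant in the oocyte, fell by 0.76 and 1.15. The counts were sensitive to single libraries: 1 higher without alpha-amanitin replicate 2, 8 higher without wild-type replicate 1, and 1 lower without alpha-amanitin replicate 1, where the Dppa3 call ended (adjusted p = 0.0919). In the morpholino comparisons no gene of these 5 lists was called.

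The profiles most like each gene were taken over the 9 libraries as the highest Pearson r of log2(FPKM + 1) among 12956 genes, as a description only, since all points share library scale and group. Obox3 was most like Cggbp1, Coq4 and RP23-76P9.1 (r = 0.996, 0.995 and 0.995), Obox6 most like Slc25a25, Nid2 and Tfg (0.997, 0.996 and 0.996), and Crxos most like Unc119b, Pim3 and Gm5662 (0.998, 0.997 and 0.997). Obox1 was most like Trim60, Dtx3 and Tdrp (0.964, 0.962 and 0.961), Obox2 most like Ccdc74a, H1f0 and RP24-353D23.2 (0.967, 0.960 and 0.944), and Obox5 most like Slc35b4, Psme3 and Golph3 (0.966, 0.948 and 0.945). The r among Obox3, Obox6 and Crxos was 0.963 to 0.973, and the r between any of these and Obox1, Obox2 or Obox5 was below 0. With a single treatment that removes the first set, these values mostly restate the split with alpha-amanitin.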

How the data were processed

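RNA-seq libraries of late 2-cell embryos were made by the TruSeq procedure after RNeasy Micro extraction, per the labels' protocols. The authors deposited 1 table of FPKM per library with a lower and an upper bound, in the layout of Cufflinks, per the file headers; the build was mm10 and Cufflinks was used, per the submitters' processing notes, while the sources used here do not give the aligner of these reads, its settings or the annotation. From these values limma 3.58.1 (R 4.3.3) was fitted on log2(FPKM + 1) to all 9 libraries with group as the only term (5 residual degrees of freedom, eBayes with trend), over 13137 genes that reached an FPKM of 1 in 2 libraries or more. Tests were two-sided, with Benjamini-Hochberg adjustment over all genes tested and calls at an adjusted p under 0.05. The fit was also run on simulated data with far fewer changed genes than were called here, and no result rests on that run. FPKM steps were not turned into reads, and depth is unknown. The 6 genes were picked out by symbol, but this family and the lists were chosen as a subject with earlier results of these data known. Genes named from a list were the 3 with the smallest p with alpha-amanitin, and family rows reaching 10 FPKM in any library were considered for naming. A gene named by this rule is not reported here. GENCODE M21 gave names by gene ID (31670 of 32287 matched), transcripts and coding sequences, aligned with Biopython; promoter sequences are RefSeq's (GRCm38.p6). Alternatives were a pseudocount of 0.1, no filter, TPM, quantile normalization, eBayes without trend, only the groups compared, the replicate block and each library left out. Other assays of the series, and its further 2-cell embryo RNA-seq libraries labelled by cell number, were not used here. Protein sequences were not used here.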

Additional observations from a re-analysis of the deposited data

How the results depend on the processing

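The 3 genes lower with alpha-amanitin (Obox3, Obox6 and Crxos) stayed called under all 16 alternatives, and none of the 6 was called in a morpholino comparison under any of them. The count of members higher with alpha-amanitin, 1 (Obox1), was 0 with no filter, 0 with only the 2 groups compared, and 0 to 1 when 1 library was left out. Replicate numbers did not pair the libraries: deviations of same-numbered libraries correlated at -0.05 to 0.04. With the replicate block, where wild-type replicate 3 has a level of its own and so drops out, 3 members stayed lower and 1 higher, none was called in a morpholino comparison, and 3115 genes were called with alpha-amanitin in place of 3865. Differences that changed sign were all uncalled. For Obox5, Kdm5a+b minus mismatch control was 0.03, and -0.056 with TPM and -0.066 with quantile normalization. With 1 library left out, Kdm5a+b minus mismatch control ran from -0.42 to 0.17 for Obox2, -0.059 to 0.11 for Obox5 and -0.50 to 0.42 for Crxos. Mismatch control minus wild type ran from -0.073 to 0.54 for Obox2, -0.61 to 0.13 for Obox3, -0.25 to 0.049 for Obox5, -0.12 to 0.23 for Obox6 and -0.39 to 0.070 for Crxos. A left-out library leaves a group of 1, whose spread is then taken from the other groups. With no filter 24 genes were called between Kdm5a+b and mismatch control and 8 between mismatch control and wild type, none of them among the 6. Calls of named genes also ended for Dmbx1 with quantile normalization (adjusted p = 0.0575), for Omt2b with no filter (0.498) and without trend (0.112), and for Dppa3 with no filter (0.150) and without trend (0.0530). Counts of stored oocyte transcripts higher with alpha-amanitin were 8 with TPM and 13 with quantile normalization, in place of 4, and those of other homeobox genes 6 and 7 in place of 2. The authors' bounds limit the low values: Obox3 could reach 0.748 FPKM with alpha-amanitin.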
